A study of Mus musculus with 8 samples.

Results

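The imiquimod response of mouse back-skin epidermis labelled Ovol1 -/- was described from 4 RNA sequencing libraries of the 8 in the series. They were chosen by their labels alone: 2 libraries of untreated skin and 2 of skin treated with imiquimod (IMQ), all from CD1 mice labelled Ovol1 -/-, with 1 female and 1 male animal in each group. The 4 remaining libraries served as the comparison. They came from Ovol1 +/- mice for untreated skin and from Ovol1 +/+ mice for IMQ, again with 1 female and 1 male each, so the control genotype changed together with the treatment. The epidermis had been peeled from the dermis after dispase digestion, and polyadenylated RNA was sequenced with a strand-marking kit. Neither the IMQ dose and schedule nor the age of the mice is stated in the labels. Since the replicates of a group were of different sex, the spread used in each test holds the difference between sexes as well as that between animals.

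Imiquimod is an agonist of Toll-like receptor 7 that is applied to mouse skin to produce a psoriasis-like inflammation. In this inflammation keratinocytes release chemokines, alarm proteins and cytokines of the IL-1, IL-36 and IL-20 families, which draw in and are in turn driven by cells that make IL-17 and type I interferon. Ovol1 is a zinc-finger transcriptional repressor of stratified epithelia and hair follicles that takes part in ending proliferation and starting terminal differentiation of keratinocytes.

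The 8 libraries held 28600596 to 43080052 reads over 16902 listed genes, of which 16249 to 16603 had at least 1 read per library. Levels are given in CPM, a gene's reads relative to the library's read total after scaling over all 8 libraries, and each pair of values is ordered female, then male. Differences between IMQ and untreated are on the scale of log2(CPM + 0.5), tested with limma. In a principal component analysis the first axis took 70.4% of the variance and separated all IMQ from all untreated libraries. The female labelled knockout under IMQ lay farthest out on it (74.2), followed by the male (56.4), with the control IMQ libraries at 29.6 and 40.5. The collagen gene Col1a2, a fibroblast gene, was uneven between animals, at 18.0 and 180.2 CPM untreated and 21.5 and 619.9 CPM under IMQ. The sum of dermal fibroblast markers was 1015 and 1315 CPM untreated and 941 and 2672 CPM under IMQ. With 1 animal per sex in each group, sex and animal cannot be told apart. Results that rest on the 4 labelled knockout libraries were refitted without each of them in turn.

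Ovol1 itself (chr19:5549136-5560646, minus strand, GRCm38) was read in every library labelled knockout, at 725 and 699.8 CPM untreated and 436 and 429 CPM under IMQ (log2 difference -0.72, SE 0.14, adjusted p = 0.00495). Both IMQ libraries lay below both untreated ones. In the control libraries Ovol1 was at 445 and 392 CPM untreated and 250.3 and 310.1 CPM under IMQ, a difference of -0.58, and the responses differed by -0.14 (SE 0.20, adjusted p = 0.809). The libraries labelled Ovol1 -/- thus held more Ovol1 reads than the controls in both treatments. Counts over a whole gene do not check a deletion of part of it, and the labels do not state which segment was deleted, so the genotype is used as labelled. Ovol2, its paralog, was at 10.2 and 14.9 CPM untreated and 7.44 and 8.24 CPM under IMQ, with a log2 difference of -0.62 (SE 0.26) and an adjusted p of 0.0789, which did not pass the threshold of 0.05.

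Of 13555 genes tested in the labelled knockout epidermis, 7206 (53.2%) differed between IMQ and untreated at an adjusted p under 0.05. IMQ raised 3798 genes (28.0%) and lowered 3408 (25.1%), the shares against which counts of list members are to be read. The balance depended on the scaling: it was 3125 higher and 3935 lower with total reads only, and 3403 and 3486 with quantile normalisation. The median gene was at 0.0058, and the differences ran from -4.51 to 7.22. In all 7206 the sexes moved the same way. The calls were made from these same libraries and favour genes whose sex pairs agree, so this is no separate check. The IMQ and untreated libraries did not overlap in 10995 genes (81.1%), which is the background for every such statement on single genes here. The differences of the sex pairs correlated at r = 0.901 across the 13555 genes, which share the libraries and are not independent. The female pair had the wider response, with an SD of 1.10 over genes against 0.958 for the male pair. Counts of members are followed by the count without a library wherever at least 6 members were called in a direction and leaving that library out moved the count by over 1.5 times; smaller counts of called members moved by as much in many lists. Leaving out the female or the male untreated library left 4731 or 4788 called genes, and leaving out the female or the male IMQ library left 4810 or 6174.

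**Figure D1:**
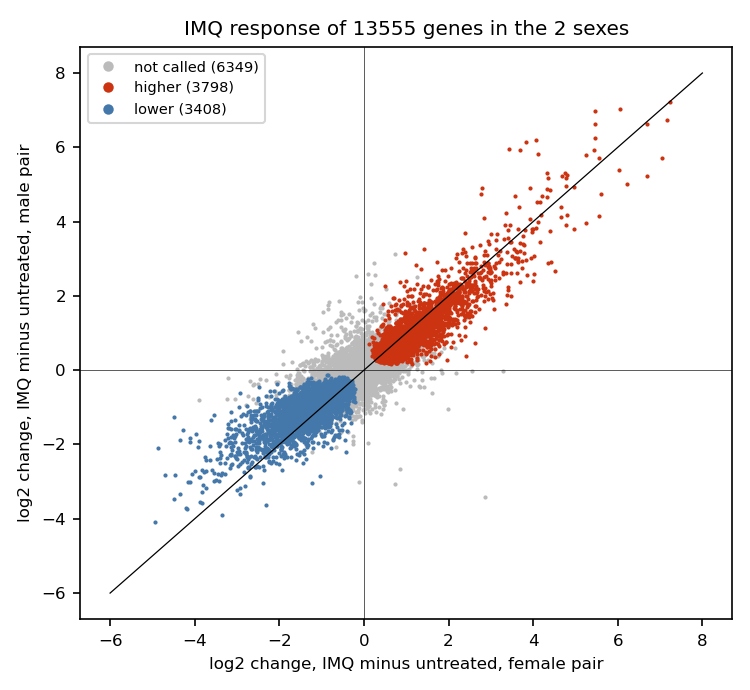
Log2 difference between IMQ and untreated for 13555 genes in labelled Ovol1 -/- epidermis, female pair on the horizontal and male pair on the vertical axis, 1 dot per gene. The 3798 higher genes (red) and 3408 lower genes (blue) lie in the quadrants where both sexes moved the same way, and grey dots are the 6349 genes not called; the line marks equal change.

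The largest rise was that of Krt6b, a keratin of wounded and hyperproliferative epidermis, from 6.16 and 3.06 CPM to 999 and 530.2 CPM (log2 difference 7.22, SE 0.90, adjusted p = 0.000854). It was followed by Sh2d5, at 0.575 and 0.542 CPM untreated and 154 and 109.5 CPM under IMQ (log2 difference 6.95, SE 0.44, adjusted p = 0.000287). Slc7a11, the cystine transporter that feeds glutathione synthesis, was at 2.52 and 0.949 CPM untreated and 313 and 144 CPM under IMQ (log2 difference 6.67, SE 0.72, adjusted p = 0.000553). S100a9 was at 4.03 and 1.68 CPM untreated and 300.0 and 284 CPM under IMQ, a difference of 6.54. S100a8, which pairs with it in the alarm protein calprotectin, was at 3.40 and 1.27 CPM untreated and 172 and 135 CPM under IMQ, a difference of 5.87. Pla2g4e, a cytosolic phospholipase, rose by 6.38, Slpi, a secreted inhibitor of neutrophil elastase, by 6.22, and the small GTPase gene Rab31 by 5.71. Cxcr2, the receptor for the chemokines Cxcl1 and Cxcl2, rose from 0.630 and 0.596 CPM to 115 and 40.8 CPM, 5.96 on the log2 scale. Sprr2i, Ccl20 and Lce3c made up the 12 genes with the highest differences and are described with their families. In all 12 genes both IMQ libraries lay above both untreated ones, as the rule for choosing them required.

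Skint7, of a family of membrane proteins made by keratinocytes whose member Skint1 selects epidermal gamma-delta T cells, had the largest fall, from 68.7 and 51.2 CPM to 1.77 and 2.53 CPM (log2 difference -4.51, SE 0.34, adjusted p = 0.000287). The next were Mettl7a1 (-3.98), Tppp, a tubulin-binding protein (-3.96), the potassium channel subunit Kcnj16 (-3.95), and the sugar transporter Slc2a12 (-3.84). Gabrp, a GABA receptor subunit, was at 11.7 and 19.7 CPM untreated and 0.354 and 1.19 CPM under IMQ. The secreted Wnt and BMP antagonist Sostdc1 went from 23.2 and 24.3 CPM to 1.13 and 1.62 CPM, and Nkd2, an intracellular inhibitor of Wnt signalling, from 21.2 and 12.1 CPM to 0.483 and 1.28 CPM. Slc22a4, a transporter of the antioxidant ergothioneine, fell by 3.58, Syne1, which links the nucleus to the cytoskeleton, by 3.56, and the transcription factor gene Sox6 by 3.56. Dbp, the remaining gene of these 12, belongs to the clock output described further on. Untreated and IMQ libraries did not overlap in any of the 12, which the rule for choosing them also required.

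**Figure D2:**
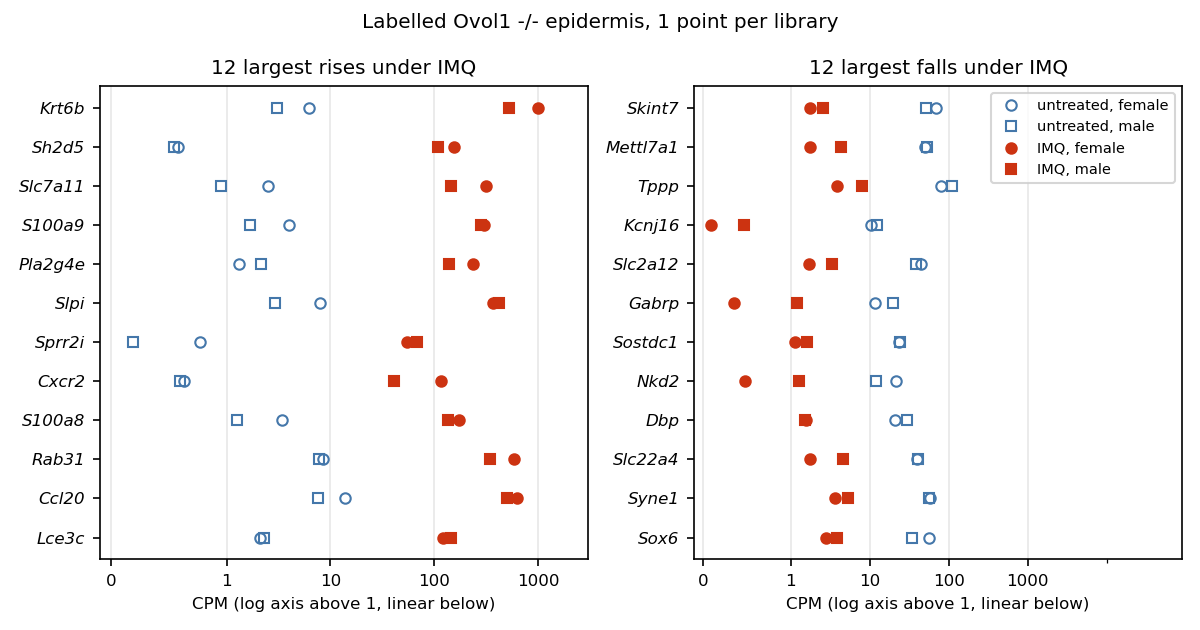
CPM in each of the 4 labelled Ovol1 -/- libraries for the 12 genes with the largest rises (left) and falls (right) under IMQ, on an axis that is logarithmic above 1 CPM and linear below. Open blue symbols are untreated and filled red symbols IMQ, circles female and squares male; the red symbols stand apart from the blue ones in all 24 genes, as the rule for choosing them required.

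Interferon-stimulated genes, the antiviral programme that follows type I interferon, rose together. Of 37 tested, 32 were higher and 0 lower, against 28.0% and 25.1% of all genes, with a median of 2.30 (female pair 2.5, male pair 2.06). Ifit1, which binds foreign RNA ends, was at 0.164 and 0.705 CPM untreated and 13.5 and 15.6 CPM under IMQ (log2 difference 4.07, SE 0.55, adjusted p = 0.00114). The antiviral GTPase Mx1 was at 0.192 and 0.136 CPM untreated and 9.14 and 8.21 CPM under IMQ, a difference of 3.79. Its relative Mx2 was at 0.904 and 0.623 CPM untreated and 23.1 and 15.5 CPM under IMQ, a difference of 3.95. Untreated levels of Mx1 and Mx2 lay under 1 CPM in both animals, so these differences start from few reads. Oasl2 went from 1.56 and 2.28 CPM to 41.3 and 19.8 CPM. Stat2 and Irf9, parts of the factor that binds interferon response elements, had the most reads of the list and rose by 1.61 and 1.27. The 5 members that did not pass the test were Ifi27l2a, Isg20, Irf7, Herc6 and Gbp2. Fewer members passed without the female untreated, the male untreated or the female IMQ library. The median lay between 1.98 and 2.61 with 1 labelled knockout library left out. Ifit3 and Ifit3b, and the Oas1 genes, have near-identical copies whose reads the counting may have split, so single values in them are uncertain.

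The promoters of these genes were looked at because the interferon response element is a defined sequence. Its core, the letters GAAA repeated after a gap of 2 bases of any kind, was searched on both strands in the 250 bases before the start of each gene in the RefSeq promoter table (GRCm38.p6). A promoter was at hand for 27 of the 37 members, and 13 of them (48.1%) held the core, against 3.46% of all 27025 genes with a promoter in the table and 3.22% of those tested. Among the members that rose, 12 of 23 held it. Windows around the match are shown for 3 of the strongest responders and for Oas1a and Isg15, which encode an RNA-sensing enzyme and a ubiquitin-like modifier. Capitals mark the matched core nearest the gene start, and further matches are not marked. The promoters of Ifit1, Ifit3 and Oas1a held 2 matches each, that of Isg15 held 3 and that of Rsad2 held 1. Each window is read along the gene's strand, so a match on the other strand appears as repeated TTTC. The windows are chr19:34640759-34640858, plus strand, for Ifit1, chr19:34583362-34583461, plus strand, for Ifit3, chr12:26456518-26456617, minus strand, for Rsad2, chr5:120907526-120907584, minus strand, for Oas1a, and chr4:156200830-156200929, minus strand, for Isg15.
Ifit1: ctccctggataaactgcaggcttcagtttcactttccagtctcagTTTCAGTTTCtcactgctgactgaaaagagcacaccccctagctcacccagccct
Ifit3: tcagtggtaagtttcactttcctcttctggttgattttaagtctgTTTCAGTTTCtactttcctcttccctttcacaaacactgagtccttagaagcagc
Rsad2: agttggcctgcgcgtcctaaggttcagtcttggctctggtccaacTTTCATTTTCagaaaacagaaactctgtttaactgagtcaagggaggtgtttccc
Oas1a: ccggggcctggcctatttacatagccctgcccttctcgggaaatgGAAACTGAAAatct
Isg15: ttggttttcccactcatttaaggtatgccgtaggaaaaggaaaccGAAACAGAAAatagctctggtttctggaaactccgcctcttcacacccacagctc
The match is a description of the letters and not evidence of binding. Of the genes shown, Ifit3 rose by 3.33, Rsad2 by 3.29, Oas1a by 2.79 and Isg15 by 2.72. Rsad2, Oas1a and Isg15 were chosen after their values were seen.

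Of the Toll-like receptors and their adaptors, 15 were tested, 4 rose and 2 fell (against 28.0% and 25.1% of all genes), with a median of 0.37 that lay between 0.14 and 0.54 with 1 library left out. The adaptor Myd88, through which Toll-like receptor 7 signals, was at 106 and 95.4 CPM untreated and 193 and 169 CPM under IMQ (log2 difference 0.84, SE 0.16, adjusted p = 0.00445). The kinase Irak1 rose by 0.69. Tlr5, the receptor for flagellin, was at 7.89 and 6.23 CPM untreated and 1.35 and 2.71 CPM under IMQ and fell by 1.62 (SE 0.38, adjusted p = 0.0102), a call lost without the female untreated library (-1.46, adjusted p = 0.0611) and without the female IMQ library (-1.26, adjusted p = 0.0596).

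Chemokines that draw in neutrophils were among the strongest responders. Of 9 chemokines, colony-stimulating factors and their receptors tested, 7 rose and 0 fell, with a median of 4.37. Cxcl1 was at 9.06 and 5.01 CPM untreated and 259 and 218 CPM under IMQ (log2 difference 5.04, SE 0.28, adjusted p = 0.000267). Cxcl2 was at 6.33 and 8.46 CPM untreated and 259 and 139.6 CPM under IMQ, a difference of 4.61. Cxcl3 had 0 reads in both untreated libraries and was at 15.03 and 6.43 CPM under IMQ, at least 131-fold higher with a floor of 3 reads per untreated library. With Cxcl3 at that bound the median was 4.16. Csf2, which encodes the growth factor GM-CSF, was at 2.22 and 0.190 CPM untreated and 28.6 and 42.4 CPM under IMQ, with a much lower male than female level untreated. The IMQ and untreated libraries did not overlap in 8 of the 9 genes, against 81.1% of all genes. The letters GGGANTTCC, a form of the kappaB site, and the AP-1 site TGANTCA were searched on both strands in the 250 bases before the start. They were in 0 of the 7 members with a RefSeq promoter. Their shares were 1.63% and 7.82% of all genes with one, and 2.31% and 6.17% of those tested. Other forms of the kappaB site, such as longer ones, were not searched, so the 0 does not show that these promoters lack one. Of 20 other chemokines, 11 rose and 3 fell (against 28.0% and 25.1% of all genes). Ccl20, which attracts CCR6-bearing IL-17 producers, was at 13.9 and 7.67 CPM untreated and 627 and 499 CPM under IMQ (log2 difference 5.69, SE 0.40, adjusted p = 0.000287), and the interferon-induced Cxcl10 and Cxcl11 rose by 3.67 and 2.82. The monocyte chemokines Ccl2 and Ccl7 rose by 2.40 and 2.17.

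Among antimicrobial peptides and alarm proteins, 12 of 20 rose and 0 fell (against 28.0% and 25.1% of all genes), with a median of 1.41. Besides calprotectin and Slpi these were led by Chil1, a chitinase-like protein, at 17.1 and 2.82 CPM untreated and 249 and 236 CPM under IMQ (log2 difference 4.99, SE 0.68, adjusted p = 0.00113). Lcn2, which sequesters bacterial iron carriers, was at 1.92 and 1.60 CPM untreated and 48.0 and 61.6 CPM under IMQ (log2 difference 4.61, SE 0.58, adjusted p = 0.000902). The beta-defensin gene Defb6 rose from 211 and 188 CPM to 451 and 618 CPM. Wfdc21, at 159 and 283 CPM untreated and 55.9 and 197 CPM under IMQ, overlapped between the treatments. Of 8 neutrophil markers tested, 5 rose (S100a8, S100a9, Cxcr2, Hdc and Trem1) and 1 fell, Mmp9, at 23.3 and 16.7 CPM untreated and 8.56 and 7.02 CPM under IMQ; Il1r2 and Padi4 did not pass. S100a8 and S100a9 are also made by activated keratinocytes. The summed level of 17 neutrophil markers was 323 and 294 CPM untreated and 827 and 809 CPM under IMQ, with 6 and 4 of the 17 at 0 untreated and 1 in each IMQ library. Without S100a8, S100a9 and Cxcr2 the sum was 315 and 290.3 CPM untreated and 239 and 349 CPM under IMQ, and the treatments overlapped. These 3 genes are among the largest rises, so leaving them out lowered the IMQ sum by construction. The overlap is therefore no check on the number of neutrophils. At 0 reads in both untreated libraries were Clec4e, Acod1, Retnlg and Fpr2, and under IMQ Retnlg was at 0 in the female and Fpr1 in the male. The part of infiltrating cells in these rises was not tested, and in bulk RNA more cells of a type and more RNA per cell cannot be told apart.

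In the IL-1 family, 7 of 15 genes rose and 1 fell, with a median of 0.033; 3 rose without the male untreated library and 4 without the female IMQ library. Over all genes 28.0% rose and 25.1% fell. Il1a, the keratinocyte alarm cytokine, was at 14.6 and 11.5 CPM untreated and 134 and 151 CPM under IMQ (log2 difference 3.41, SE 0.18, adjusted p = 0.000267). Its spread between the animals was small. Il1f6, which encodes IL-36 alpha, was at 5.53 and 2.39 CPM untreated and 41.6 and 85.9 CPM under IMQ (log2 difference 3.85, SE 0.53, adjusted p = 0.00123). Il33, an alarm cytokine of epithelial nuclei, rose from 50.3 and 34.0 CPM to 203 and 154 CPM, 2.08 (SE 0.42). Il1b rose by 2.34, but its untreated level was higher in the female (54.7 and 19.0 CPM), and the call was lost without the male untreated library (adjusted p = 0.152), without the female IMQ library (0.0821) and without the male IMQ library (0.101). The receptor antagonist Il1rn was at 299 and 285 CPM untreated and 167 and 210.0 CPM under IMQ, -0.64 (SE 0.24, adjusted p = 0.0572), below the untreated level in both sexes without passing the test.

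Of 16 genes of the IL-20 subfamily and of cytokines that signal through gp130, 6 rose and 5 fell. Over all genes 28.0% rose and 25.1% fell. Il24 was at 1.56 and 0.271 CPM untreated and 52.7 and 28.4 CPM under IMQ (log2 difference 4.96, SE 0.58, adjusted p = 0.000716). Il19 was at 0.110 and 0.0271 CPM untreated and 14.9 and 8.74 CPM under IMQ (log2 difference 4.40, SE 0.57, adjusted p = 0.000996). Lif and Clcf1, which bind gp130 receptor complexes, rose by 3.03 and 2.40. Il20rb, the receptor subunit that Il19, Il20 and Il24 share, fell from 156 and 188 CPM to 43.5 and 55.4 CPM (log2 difference -1.79, SE 0.23, adjusted p = 0.000919). Stat3, which these receptors activate, rose by 0.97, and its feedback inhibitor Socs3 overlapped between the treatments at 474 and 335 CPM untreated and 446 and 738 CPM under IMQ. Of 19 genes around the cytokines IL-17, IL-22 and IL-23, 4 rose and 4 fell (against 28.0% and 25.1% of all genes). Il17c, an epithelial member, was at 0.356 and 0.0813 CPM untreated and 2.16 and 2.09 CPM under IMQ (log2 difference 1.89, SE 0.31, adjusted p = 0.00231), and Zc3h12a, an RNase that limits IL-17 signalling, rose by 0.86. Il17rb fell by 1.53. Nfkbiz, a mediator of IL-17 signalling in keratinocytes, overlapped between the treatments at 614 and 467 CPM untreated and 578 and 516 CPM under IMQ. Il17f, named here after its values were seen, had 20 and 9 reads untreated and 25 and 23 reads under IMQ, and its difference of 0.51 did not pass the test (adjusted p = 0.113).

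Of 25 genes of the TNF family and NF-kappaB feedback, 9 rose and 3 fell (against 28.0% and 25.1% of all genes), with a median of 0.12. Tnfrsf9, a costimulatory receptor, was at 2.35 and 1.68 CPM untreated and 51.4 and 39.2 CPM under IMQ (log2 difference 4.19, SE 0.22, adjusted p = 0.000267). Bcl3, an atypical NF-kappaB inhibitor, was at 38.3 and 22.8 CPM untreated and 196 and 156 CPM under IMQ (log2 difference 2.54, SE 0.31, adjusted p = 0.000757). Nfkbia, the classical inhibitor, rose by 1.01. Tnfrsf11b, the decoy receptor osteoprotegerin, fell by 1.70. Tnfaip3, the feedback enzyme A20, did not pass at 770.2 and 513 CPM untreated and 513 and 546 CPM under IMQ.

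Of 14 EGF family ligands, receptors and regulators, 5 rose and 4 fell (against 28.0% and 25.1% of all genes). Nrg1, which activates ErbB3 and ErbB4, was at 1.26 and 1.57 CPM untreated and 54.3 and 62.5 CPM under IMQ (log2 difference 4.94, SE 0.42, adjusted p = 0.000333). Tgfa was at 77.2 and 69.3 CPM untreated and 574 and 404 CPM under IMQ (log2 difference 2.71, SE 0.19, adjusted p = 0.000287). Epgn was at 252 and 214 CPM untreated and 829 and 971 CPM under IMQ (log2 difference 1.95, SE 0.40, adjusted p = 0.00586). Erbb3, the receptor for Nrg1, fell from 385 and 355 CPM to 122 and 137 CPM (log2 difference -1.51, SE 0.11, adjusted p = 0.000287). Ereg, the ligand gene with the most reads, overlapped between the treatments at 1089.9 and 871 CPM untreated and 759 and 1328 CPM under IMQ. Of 19 AP-1 and other immediate early genes, 9 fell and 2 rose, with a median of -0.57 (female pair -0.85, male pair -0.14); 2 fell without the female untreated library and 5 without the male untreated or female IMQ library. Egr3 fell from 526 and 481 CPM to 213 and 268 CPM (log2 difference -1.07, SE 0.15, adjusted p = 0.00119). Fosb fell by 2.13 from 3982 and 3305 CPM to 451 and 1526 CPM, a call lost without the female untreated library (adjusted p = 0.0519). Myc, chosen for mention after its values were seen, was at 373 and 313 CPM untreated and 147 and 245 CPM under IMQ (log2 difference -0.84, SE 0.25, adjusted p = 0.0256), with the smaller change in the male pair.

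**Figure D3:**
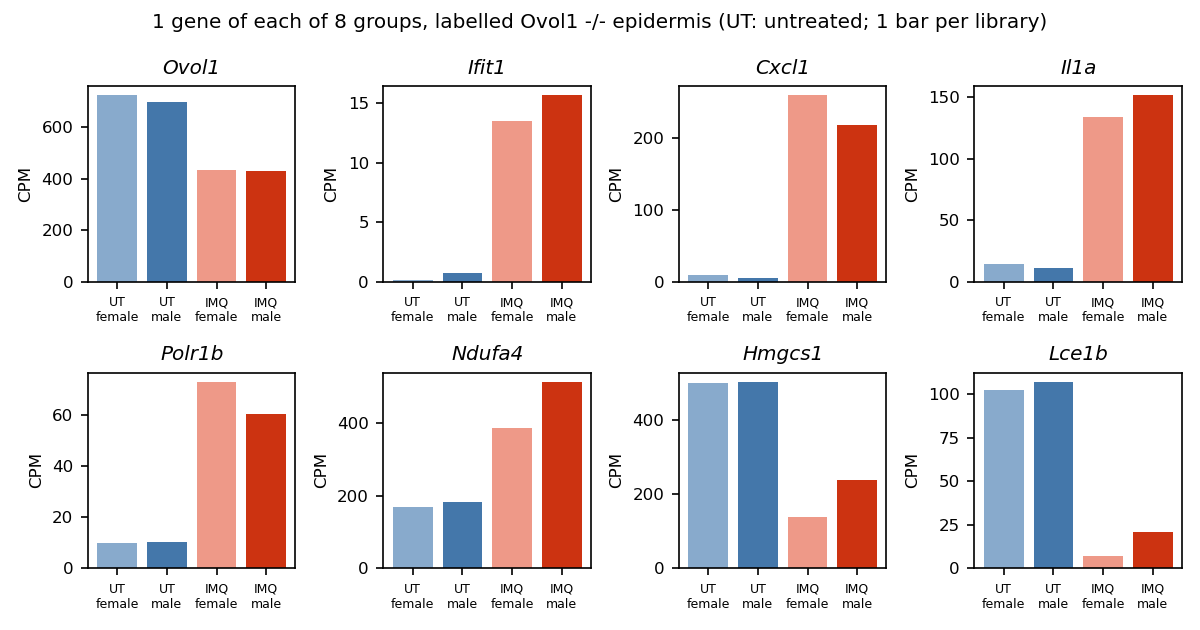
CPM of 8 genes, 1 per group of genes described in the text, in the 4 labelled Ovol1 -/- libraries (UT untreated, blue; IMQ, red; lighter female, darker male), 1 bar per library on axes that start at 0. Ovol1, Hmgcs1 and Lce1b stood lower in both IMQ libraries and Ifit1, Cxcl1, Il1a, Polr1b and Ndufa4 higher.

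Of 9 keratins of wounded, simple or hyperproliferative epithelia, 5 rose and 2 fell. Krt16 was at 251 and 131 CPM untreated and 4534 and 3020.3 CPM under IMQ (log2 difference 4.35, SE 0.68, adjusted p = 0.00195). Krt6a was at 308 and 315 CPM untreated and 1973 and 1422 CPM under IMQ (log2 difference 2.43, SE 0.23, adjusted p = 0.000409). Krt17 was at 2349 and 2193 CPM untreated and 5229 and 4793 CPM under IMQ (log2 difference 1.14, SE 0.22, adjusted p = 0.00454). Krt14, a keratin of the normal basal layer, was at 6018 and 4448 CPM untreated and 5696 and 7747 CPM under IMQ. Its partner Krt5 was at 5955 and 4747 CPM untreated and 4277 and 5128 CPM under IMQ. Neither passed the test, and both overlapped between the treatments. Krt15, a keratin of basal and hair follicle stem cells, fell from 3346 and 3693 CPM to 704 and 939 CPM (log2 difference -2.11, SE 0.20, adjusted p = 0.000403), and Dst, which anchors keratin to hemidesmosomes, fell by 1.76. The integrin gene Itgb1 rose from 198 and 188 CPM to 513 and 483 CPM, Cdh3 by 1.16 and Itga3 by 1.06. Of 16 basal genes, 6 rose and 4 fell (against 28.0% and 25.1% of all genes).

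Of 15 suprabasal genes 7 fell and 1 rose, with a median of -0.63 (female pair -0.85, male pair -0.32); 3 fell without the female untreated, male untreated or female IMQ library. The desmosomal cadherin Dsg1a was at 1936 and 2072 CPM untreated and 666 and 799 CPM under IMQ (log2 difference -1.46, SE 0.14, adjusted p = 0.000403). Krt10, the main suprabasal keratin, was at 7989 and 7990.3 CPM untreated and 3789 and 6146 CPM under IMQ, -0.73 with an adjusted p of 0.0501. Ptgs1, which encodes a cyclooxygenase, was the member that rose (0.91). The shares of all genes, 28.0% higher and 25.1% lower, are the background for this list and the next. Of 18 cornified envelope precursors and transglutaminases, 7 fell and 2 rose; 2 fell without the male untreated or female IMQ library. Scel, sciellin, fell from 635 and 663 CPM to 145 and 217 CPM (log2 difference -1.87, SE 0.19, adjusted p = 0.000511). Tchhl1, a trichohyalin-like protein, was at 73.6 and 80.7 CPM untreated and 3.77 and 20.8 CPM under IMQ (log2 difference -3.02, SE 0.63, adjusted p = 0.00625), and in the control libraries it stayed under 1 CPM, at 0.301 and 0.404 CPM untreated and 0.120 and 0.148 CPM under IMQ. Loricrin (Lor), the main structural protein of the envelope, was at 2135 and 2533 CPM untreated and 1032 and 2558 CPM under IMQ and overlapped.

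The late cornified envelope genes, which encode small proteins cross-linked into the horny layer, moved in opposite directions by subfamily. Of 14 Lce1 genes, 13 fell and none rose, with a median of -2.42 (female pair -3.18, male pair -1.69). Lce1b was at 102 and 107 CPM untreated and 7.08 and 20.8 CPM under IMQ (log2 difference -3.05, SE 0.49, adjusted p = 0.00216). Lce1l was at 52.3 and 31.3 CPM untreated and 2.09 and 8.11 CPM under IMQ (log2 difference -3.12, SE 0.56, adjusted p = 0.00348). Lce1a1 was at 148 and 116 CPM untreated and 16.3 and 33.3 CPM under IMQ (log2 difference -2.47, SE 0.37, adjusted p = 0.00167). Lce1m, with the highest count, was at 799.8 and 1380.0 CPM untreated and 134 and 459 CPM under IMQ, and its call (adjusted p = 0.0357) was lost in edgeR (0.0548), in the fit to the 4 labelled knockout libraries alone (0.0562), and on leaving out the female untreated (0.0623), male untreated (0.161) or female IMQ library (0.186). With 1 labelled knockout library left out, at least 9 of the 14 were called lower. All 6 Lce3 genes rose, with a median of 4.09. Lce3c was at 2.11 and 2.28 CPM untreated and 122 and 145 CPM under IMQ (log2 difference 5.63, SE 0.35, adjusted p = 0.000287). Lce3d was at 0.301 and 0.0542 CPM untreated and 30.1 and 30.0 CPM under IMQ (log2 difference 5.52, SE 0.42, adjusted p = 0.000287). Lce3e, near the detection limit untreated, was at 0.110 and 0.0813 CPM untreated and 6.18 and 8.30 CPM under IMQ. Lce3f was at 0.192 and 0.217 CPM untreated and 13.4 and 17.7 CPM under IMQ. The female IMQ animal had the lower level of the IMQ pair in all 14 Lce1 genes.

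Small proline-rich proteins, another family of envelope precursors, rose in 9 of 11 genes and fell in 0, with a median of 3.20. Sprr2i was at 0.767 and 0.190 CPM untreated and 54.9 and 68.0 CPM under IMQ (log2 difference 6.04, SE 0.59, adjusted p = 0.000414). Sprr2d was at 8.82 and 2.79 CPM untreated and 160.2 and 184 CPM under IMQ (log2 difference 4.96, SE 0.75, adjusted p = 0.00174). Sprr1b was at 28.7 and 23.7 CPM untreated and 310.1 and 329 CPM under IMQ (log2 difference 3.59, SE 0.41, adjusted p = 0.000673). Sprr1a, with the highest count, rose by 1.17. The Lce1, Lce3 and Sprr2 genes are groups of near-identical paralogs, so reads may have been shared between members and single values are uncertain. The 2 Sprr genes that did not pass were Sprr4 and Sprr2a3, named after their values were seen.

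Proteases that shed the horny layer and their inhibitors rose in 12 of 16 members and fell in 1 with a median of 1.36; with 1 labelled knockout library left out, at least 8 rose. The kallikrein Klk6 was at 9.64 and 10.4 CPM untreated and 279 and 389.5 CPM under IMQ (log2 difference 4.97, SE 0.29, adjusted p = 0.000287). Klk10 was at 31.2 and 30.6 CPM untreated and 336 and 365 CPM under IMQ (log2 difference 3.48, SE 0.25, adjusted p = 0.000287). Klk9 was at 33.4 and 27.9 CPM untreated and 182 and 165 CPM under IMQ (log2 difference 2.48, SE 0.14, adjusted p = 0.000267). Klk7, which cleaves corneodesmosomes, rose by 0.66, a call lost without the female untreated library (adjusted p = 0.075) and without the male IMQ library (0.0615). Spink5, the kallikrein inhibitor LEKTI, was at 2277 and 2761 CPM untreated and 1283 and 1933 CPM under IMQ and did not pass (adjusted p = 0.055). Among junction genes the gap junction proteins Gjb2 and Gjb6 rose. Gjb2 was at 32.6 and 25.3 CPM untreated and 837 and 543 CPM under IMQ (log2 difference 4.53, SE 0.43, adjusted p = 0.000403). Gjb6 was at 4.19 and 3.88 CPM untreated and 63.2 and 45.9 CPM under IMQ (log2 difference 3.59, SE 0.18, adjusted p = 0.000267). The tight junction protein Ocln fell from 174 and 154 CPM to 48.4 and 57.8 CPM (log2 difference -1.62, SE 0.16, adjusted p = 0.000438), and the basal desmosomal cadherin Dsg3 rose by 1.48. Of 22 junction genes 5 rose and 6 fell, near the 28.0% and 25.1% of all genes.

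**Figure D4:**
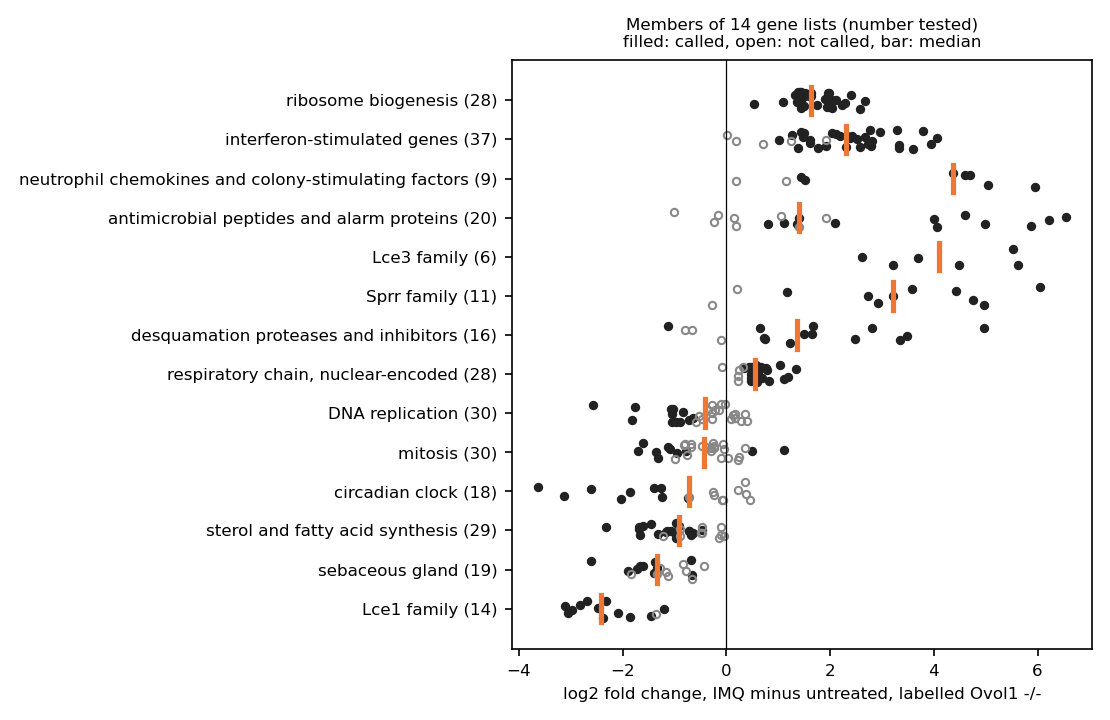
Log2 difference between IMQ and untreated in labelled Ovol1 -/- epidermis for every tested member of 14 gene lists, 1 dot per gene (filled, adjusted p under 0.05; open, not called), with the list's median as an orange bar and the number tested in brackets. All 28 ribosome biogenesis genes lie to the right of 0 and all 14 Lce1 genes to the left.

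All 28 tested genes of ribosome biogenesis rose, with a median of 1.64 (female pair 1.68, male pair 1.65) and 26 called without the female IMQ library. Polr1b, a core subunit of the polymerase that makes ribosomal RNA, was at 9.72 and 10.2 CPM untreated and 73.0 and 60.4 CPM under IMQ (log2 difference 2.68, SE 0.26, adjusted p = 0.000433). Dkc1, which modifies ribosomal RNA, was at 26.4 and 23.1 CPM untreated and 159 and 140.3 CPM under IMQ (log2 difference 2.57, SE 0.20, adjusted p = 0.000298). Wdr12 was at 16.9 and 14.9 CPM untreated and 99.6 and 74.9 CPM under IMQ (log2 difference 2.40, SE 0.18, adjusted p = 0.000287). Nop2 was at 38.3 and 32.0 CPM untreated and 191 and 156 CPM under IMQ (log2 difference 2.29, SE 0.27, adjusted p = 0.000711). Ncl and Npm1, the abundant nucleolar proteins nucleolin and nucleophosmin, rose by 1.52 and 1.41. In all 28 genes the IMQ libraries lay above the untreated ones. Over all genes tested, 28.0% rose and 25.1% fell. Of 12 genes of arginine, polyamine and tryptophan metabolism 7 rose and 1 fell; 4 rose without the male untreated or female IMQ library. Spermidine synthase (Srm) was at 17.2 and 17.5 CPM untreated and 215 and 164 CPM under IMQ (log2 difference 3.40, SE 0.24, adjusted p = 0.000287). Ornithine decarboxylase (Odc1), the entry to polyamine synthesis, was at 178 and 144 CPM untreated and 522 and 437 CPM under IMQ (log2 difference 1.57, SE 0.28, adjusted p = 0.00319).

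Nuclear-encoded respiratory chain genes were higher in 23 of 28 members and lower in 0, with a median of 0.56; 12 rose without the female untreated or male IMQ library and 14 without the male untreated library. Cyc1, cytochrome c1, was at 57.5 and 60.5 CPM untreated and 134 and 136 CPM under IMQ (log2 difference 1.19, SE 0.11, adjusted p = 0.000384). Cox5a was at 19.1 and 17.8 CPM untreated and 40.2 and 40.9 CPM under IMQ (log2 difference 1.12, SE 0.12, adjusted p = 0.000542). Ndufa4 was at 169 and 184 CPM untreated and 387 and 515 CPM under IMQ (log2 difference 1.34, SE 0.32, adjusted p = 0.0104), a call lost without the female untreated library (0.0543) and without the male IMQ library (0.0575). Of 17 glycolytic genes 8 rose and 1 fell (against 28.0% and 25.1% of all genes). Hexokinase 2 (Hk2) was at 94.9 and 60.3 CPM untreated and 303 and 221 CPM under IMQ (log2 difference 1.77, SE 0.32, adjusted p = 0.00359). Lactate dehydrogenase A (Ldha) was at 389 and 367 CPM untreated and 834 and 801 CPM under IMQ (log2 difference 1.11, SE 0.13, adjusted p = 0.000665). The mitochondrial chaperonins Hspd1 and Hspe1 rose by 1.46 and 1.27, while the cytosolic co-chaperone Dnajb1 fell by 0.89.

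Of 30 genes of DNA replication 0 rose and 12 fell, with a median of -0.41 (female pair -0.73, male pair 0.045); 6 fell without the female untreated library, where the median was -0.089, against -0.70 without the male untreated library. E2f2 was at 12.2 and 11.3 CPM untreated and 0.805 and 2.75 CPM under IMQ (log2 difference -2.57, SE 0.42, adjusted p = 0.00231). Cdc6, which loads the replicative helicase, was at 6.08 and 5.15 CPM untreated and 1.16 and 1.28 CPM under IMQ (log2 difference -1.83, SE 0.24, adjusted p = 0.00106). Pcna, the sliding clamp of replication, overlapped at 132 and 112 CPM untreated and 95.0 and 127 CPM under IMQ. The promoters of 25 of these genes were searched for the E2F sites TTTCCCGC and TTTGGCGC, on both strands in the 250 bases before the start. At least 1 site was in 5 of them (20.0%), against 1.51% of all genes and 2.77% of tested genes with a promoter. Of the 9 replication genes with a promoter that fell, 1 held a site. Of 30 mitotic genes 2 rose and 8 fell; 1 fell without the female untreated library and 2 without the female IMQ library. Over all genes 28.0% rose and 25.1% fell, so the share of mitotic genes that fell was near that of all genes. Pttg1, securin, was at 14.1 and 11.8 CPM untreated and 4.64 and 4.84 CPM under IMQ (log2 difference -1.35, SE 0.18, adjusted p = 0.00109). Top2a, a topoisomerase of dividing cells, was at 39.1 and 22.0 CPM untreated and 25.4 and 22.3 CPM under IMQ and overlapped. Among inhibitors of cyclin-dependent kinases Cdkn1b fell from 80.9 and 86.7 CPM to 31.5 and 39.2 CPM (log2 difference -1.24, SE 0.16, adjusted p = 0.000935), and Cdkn1a overlapped at 1129.5 and 981 CPM untreated and 954 and 1020.3 CPM under IMQ.

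Of 29 genes of sterol and fatty acid synthesis 19 fell and 0 rose, with a median of -0.91 (female pair -1.13, male pair -0.67); 10 fell without the female IMQ library and 11 without the female untreated or male untreated library. Scd2, a desaturase, was at 92.5 and 99.4 CPM untreated and 12.9 and 27.3 CPM under IMQ (log2 difference -2.32, SE 0.30, adjusted p = 0.000948). Mvd, an enzyme of the mevalonate pathway, was at 38.8 and 44.4 CPM untreated and 9.14 and 17.2 CPM under IMQ (log2 difference -1.68, SE 0.29, adjusted p = 0.00279). Hmgcs1, near its start, was at 500.3 and 504 CPM untreated and 139.9 and 238 CPM under IMQ (log2 difference -1.46, SE 0.30, adjusted p = 0.00561). Scd1, the desaturase of sebaceous glands, fell by 1.61, a call lost without the female untreated (0.0621) or the female IMQ library (0.0712). Of 19 sebaceous gland markers 10 fell and 0 rose; 1 fell without the female IMQ library, 3 without the female untreated or male untreated library and 17 without the male IMQ library. Their summed level was 4279 and 4372 CPM untreated and 1426 and 2555 CPM under IMQ. Scd1 is in both lists. The summed level of hair follicle stem and outer root sheath markers was 6909.6 and 6368 CPM untreated and 3043 and 3398 CPM under IMQ, with 4 of 21 called lower (against 25.1% of all genes), Krt15 among them. Without Krt15 the sum was 3564 and 2675 CPM untreated and 2339.7 and 2459 CPM under IMQ. Nfatc1, a regulator of follicle stem cells, fell by 1.36 and Lrig1 by 1.11. The share of follicle and gland in the sheets and its part in the lipid genes was not tested.

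Among enzymes of barrier lipids 4 of 25 rose and 5 fell, shares below those of all genes. Cers4, a ceramide synthase, fell from 246 and 234 CPM to 60.8 and 95.1 CPM (log2 difference -1.65, SE 0.34, adjusted p = 0.00615), and Abca12, the lipid transporter of lamellar granules, did not pass at 677 and 648 CPM untreated and 834 and 704 CPM under IMQ. Of 23 NRF2 and glutathione genes 6 rose and 4 fell, against 28.0% and 25.1% of all genes. Their median of 0.085 was -0.018 when libraries were scaled by total reads only. Catalase (Cat) fell by 1.58 and Gsr, glutathione reductase, rose by 1.08.

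Transcription factors of epidermal differentiation rose in 5 of 25 cases and fell in 11; 6 fell without the female untreated library and 7 without the male untreated library. Cebpd was at 44.6 and 38.5 CPM untreated and 197 and 197 CPM under IMQ (log2 difference 2.24, SE 0.15, adjusted p = 0.000287). Klf4, a driver of barrier formation, was at 2144 and 2317 CPM untreated and 676 and 1141 CPM under IMQ (log2 difference -1.34, SE 0.25, adjusted p = 0.00375). The aryl hydrocarbon receptor Ahr was at 141 and 139.6 CPM untreated and 45.1 and 63.2 CPM under IMQ (log2 difference -1.39, SE 0.18, adjusted p = 0.000933). Of 13 Notch pathway genes 1 rose and 6 fell. Notch1 was at 196 and 214 CPM untreated and 90.0 and 96.3 CPM under IMQ (log2 difference -1.13, SE 0.12, adjusted p = 0.00052). Notch3 was at 151 and 163 CPM untreated and 73.1 and 69.7 CPM under IMQ (log2 difference -1.13, SE 0.12, adjusted p = 0.000553), and Notch2 fell by 0.67. Rbpj, their nuclear partner, rose by 0.84. In the list of epithelial-mesenchymal regulators 3 of 14 rose and 5 fell (against 28.0% and 25.1% of all genes). Zeb1, a repressor of epithelial genes that Ovol proteins are known to counter, was at 5.70 and 4.15 CPM untreated and 29.0 and 29.0 CPM under IMQ (log2 difference 2.46, SE 0.18, adjusted p = 0.000287). Esrp1, an epithelial splicing regulator, fell from 416 and 444 CPM to 168 and 205 CPM (log2 difference -1.21, SE 0.13, adjusted p = 0.000544). Zeb2 rose and Snai2 fell, and both calls were lost with some single libraries left out. Snai2 was at -1.15 without the female untreated library and -1.22 without the male IMQ library. Between the labelled knockout and control responses the list's median difference was -0.011, with 1 of 14 genes at an unadjusted p under 0.05. The part of Ovol1 in these changes was not tested. Cdh1, E-cadherin, overlapped at 1095 and 895 CPM untreated and 914 and 762 CPM under IMQ.

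Of 18 circadian clock and clock output genes 9 fell and 0 rose, with a median of -0.72 (female pair -0.64, male pair -0.81). Among all genes 25.1% fell and 28.0% rose. Dbp was at 20.7 and 29.8 CPM untreated and 1.58 and 1.53 CPM under IMQ (log2 difference -3.63, SE 0.24, adjusted p = 0.000287). Per3 was at 38.9 and 65.6 CPM untreated and 4.64 and 6.08 CPM under IMQ (log2 difference -3.13, SE 0.25, adjusted p = 0.000298). Hlf was at 45.3 and 63.7 CPM untreated and 6.28 and 11.2 CPM under IMQ (log2 difference -2.61, SE 0.31, adjusted p = 0.00074). Tef was at 189 and 245 CPM untreated and 59.8 and 59.0 CPM under IMQ (log2 difference -1.85, SE 0.16, adjusted p = 0.000336). Dbp, Hlf and Tef encode transcription factors of 1 family that clocks drive. Per1, a core clock repressor, did not pass at 214 and 250.1 CPM untreated and 188 and 199 CPM under IMQ. The labels do not state the time of day at which tissue was taken, and its part was not tested.

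Of 21 genes of matrix remodelling and plasminogen activation 7 rose and 3 fell (against 28.0% and 25.1% of all genes). Timp1, an inhibitor of matrix proteases, was at 1.10 and 0.759 CPM untreated and 24.4 and 16.2 CPM under IMQ (log2 difference 3.85, SE 0.33, adjusted p = 0.000333). Mmp3, stromelysin, was at 10.3 and 12.4 CPM untreated and 107 and 192 CPM under IMQ (log2 difference 3.61, SE 0.79, adjusted p = 0.00761). Plaur, the urokinase receptor, rose by 2.70. Serpinb2, a serpin of keratinocytes, overlapped at 5249 and 4624 CPM untreated and 5135 and 5709 CPM under IMQ. Dermal fibroblast markers had a summed level of 1015 and 1315 CPM untreated and 941 and 2672 CPM under IMQ, highest in the male IMQ library. Of these markers 0 of 19 tested were called higher and 1 lower, and 0 of 20 were at 0 reads in any of the 4 libraries. The part of dermal cells in the matrix genes was not tested.

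Markers of the resident cells of epidermis were read in all 4 libraries. Basal keratinocyte markers summed to 21227 and 18504 CPM untreated and 17777 and 20250.2 CPM under IMQ, and the Langerhans cell and MHC class II markers to 6046 and 4649 CPM untreated and 5147 and 5239 CPM under IMQ. Of these 18 Langerhans cell and class II markers 3 rose and 2 fell (against 28.0% and 25.1% of all genes). Ciita, which switches on MHC class II genes, rose from 8.41 and 5.45 CPM to 16.8 and 14.3 CPM, and Cd74, one of its targets, overlapped at 818 and 507 CPM untreated and 746 and 936 CPM under IMQ. Among 19 markers of epidermal T cells 6 rose and 3 fell (against 28.0% and 25.1% of all genes); 3 rose without the female untreated, male untreated or male IMQ library. Gzmb, granzyme B, was at 0.110 and 0.163 CPM untreated and 7.02 and 3.59 CPM under IMQ (log2 difference 3.12, SE 0.33, adjusted p = 0.000524). Icos was at 2.41 and 1.82 CPM untreated and 17.3 and 7.18 CPM under IMQ (log2 difference 2.17, SE 0.40, adjusted p = 0.00379). Il7r was at 7.86 and 6.83 CPM untreated and 33.2 and 31.7 CPM under IMQ (log2 difference 2.07, SE 0.34, adjusted p = 0.00226). Itgae, the integrin that retains T cells in epithelium, fell from 19.3 and 19.1 CPM to 8.31 and 10.5 CPM. Macrophage markers summed to 222 and 168 CPM untreated and 386 and 427 CPM under IMQ, with 6 of 16 rising and 1 falling; 3 rose without the female untreated or male IMQ library. Fcgr2b, an inhibitory Fc receptor, was at 4.96 and 3.74 CPM untreated and 33.4 and 34.7 CPM under IMQ (log2 difference 2.84, SE 0.22, adjusted p = 0.000298). C1qa, a complement subunit of macrophages, was at 2.82 and 3.28 CPM untreated and 16.7 and 16.5 CPM under IMQ (log2 difference 2.27, SE 0.27, adjusted p = 0.000711). Endothelial markers summed to 10.95 and 8.62 CPM untreated and 14.1 and 20.1 CPM under IMQ and muscle markers to 12.4 and 8.94 CPM untreated and 7.76 and 23.9 CPM under IMQ, and 0 of 9 muscle genes were called. Of 8 endothelial genes tested 2 rose and 0 fell, against 28.0% and 25.1% of all genes. Flt1, a receptor for VEGF, rose by 2.02. Of 10 melanocyte and Schwann cell genes 0 rose and 1 fell, and of 9 adipocyte genes 0 rose and 2 fell.

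In the control epidermis IMQ changed 4528 of the 13555 genes (33.4%) at an adjusted p under 0.05, and the median absolute difference was 0.421 against 0.586 in the labelled knockouts. Across genes the responses correlated at r = 0.872, with no library in common but a shared scaling and fit. The test of the difference between the responses called 0 genes (0%) at an adjusted p under 0.05, and edgeR called 0 as well, while DESeq2 called 93, 35 with the labelled knockout response more positive and 58 more negative. An unadjusted p under 0.05 was reached by 1481 genes (10.9%), 746 more positive (5.50%) and 735 more negative (5.42%). For reference, 5% of the tested genes is 678. The smallest adjusted p was 0.267. The untreated controls were Ovol1 +/- and the IMQ controls Ovol1 +/+, so a difference between the responses cannot be told apart from the change of control genotype.

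The 12 genes with the smallest p for this difference, 6 in each direction, are given as values, since none passed. Fam83a, an amplifier of EGF receptor signalling, was at 3.89 and 4.39 CPM untreated and 119 and 73.4 CPM under IMQ in labelled knockout epidermis. Its control levels were 3.84 and 4.62 CPM untreated and 10.4 and 10.7 CPM under IMQ, a difference between responses of 3.11 (SE 0.33, adjusted p = 0.267). For Prag1 it was 2.5 (SE 0.29, adjusted p = 0.267), as the labelled knockouts went from 4.08 and 5.77 CPM to 32.5 and 26.7 CPM and the controls from 10.04 and 9.50 CPM to 8.72 and 10.7 CPM. Il1a was at 13.4 and 10.6 CPM untreated and 36.1 and 42.4 CPM under IMQ in the controls, which put the difference at 1.73 (SE 0.25, adjusted p = 0.384). The difference was 1.90 (SE 0.28, adjusted p = 0.384) for Pitpnc1. That of the serotonin receptor gene Htr7 was 2.06 (SE 0.35, adjusted p = 0.438), while Ahrr, the repressor of the aryl hydrocarbon receptor, came to 1.44 (SE 0.26, adjusted p = 0.438). On the other side Itga9, an integrin subunit, went from 1.97 and 2.25 CPM to 0.418 and 0.468 CPM in the labelled knockouts but from 0.116 and 0.173 CPM to 1.26 and 0.815 CPM in the controls, -2.71 (SE 0.33, adjusted p = 0.267). Skint8, a relative of Skint7, went from 22.3 and 19.1 CPM to 1.22 and 1.68 CPM against 20.0 and 22.6 CPM to 6.17 and 7.78 CPM in the controls, -1.90 (SE 0.28, adjusted p = 0.384). Arvcf, a catenin relative, came to -1.0 (SE 0.14, adjusted p = 0.384) and the kinase gene Alpk1 to -1.75 (SE 0.27, adjusted p = 0.438). Chdh, choline dehydrogenase, came to -1.34 (SE 0.23, adjusted p = 0.438), and the protease inhibitor gene Spink6 to -2.97 (SE 0.47, adjusted p = 0.438).

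The Lce1 median was -2.42 in labelled knockout and 0.031 in control epidermis, and 13 of 14 members had an unadjusted p under 0.05 for the difference, against 10.9% of all genes, with a smallest adjusted p of 0.438. In the controls Lce1b was at 133 and 186 CPM untreated and 97.3 and 190.2 CPM under IMQ, lower under IMQ in the female and higher in the male. The sterol and fatty acid list had medians of -0.91 and 0.16. The labelled knockout response was the lower one in all 29 of its genes, with an unadjusted p under 0.05 in 16, and the smallest adjusted p was 0.438. Hmgcs1 was at 510.2 and 589.9 CPM untreated and 484 and 789 CPM under IMQ in the controls, and Scd2 at 42.8 and 43.5 CPM and 34.6 and 40.3 CPM. The sum of sebaceous markers in the controls went from 2351 and 3443 CPM to 2055 and 1603 CPM, a lower start than the 4279 and 4372 CPM of the untreated labelled knockouts. Lce3 genes had medians of 4.09 and 2.18, and 5 of 6 reached an unadjusted p under 0.05 for the difference. Its smallest adjusted p was 0.438. Ribosome biogenesis had medians of 1.64 and 1.11, and the labelled knockout value was the higher in all 28 genes, 6 of them at an unadjusted p under 0.05. Interferon-stimulated genes had the higher median in the controls (2.77 against 2.30), with 4 of 37 at an unadjusted p under 0.05. The female control IMQ library held 125 CPM of muscle markers, against 7.76 to 23.9 CPM in the other 7 libraries. It held 57.7 CPM of endothelial markers, against 6.79 to 20.1 CPM. The male control IMQ library held 4006 CPM of dermal fibroblast markers, against 941 to 2672 CPM in the other 7. The part of these markers' cells in the differences between the responses was not tested.

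**Figure D5:**
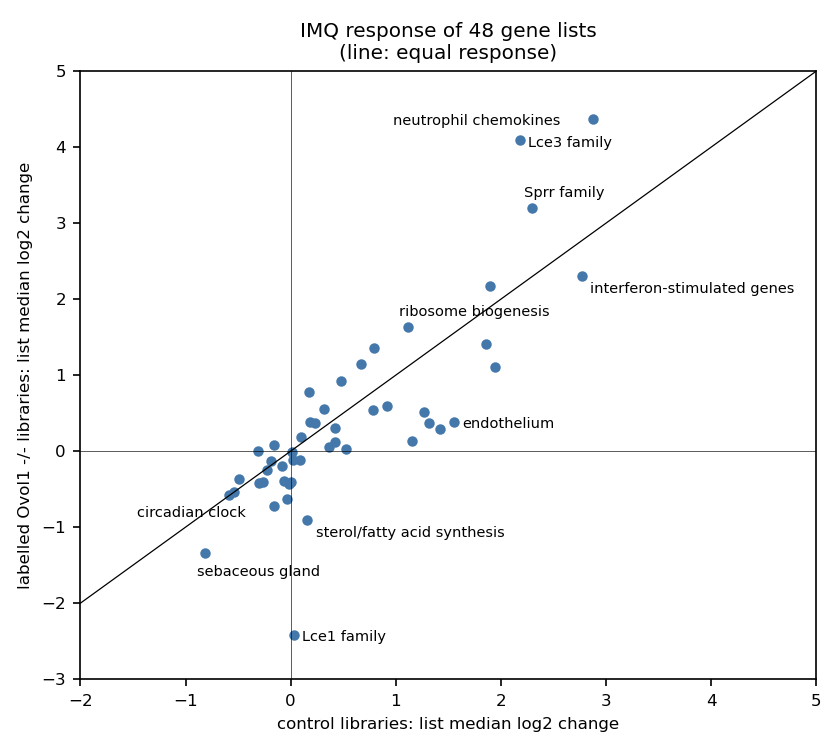
Median log2 difference between IMQ and untreated for 48 gene lists with at least 5 tested members, control libraries on the horizontal and labelled Ovol1 -/- libraries on the vertical axis, 1 dot per list; the line marks equal response. Lce1 genes (-2.42 against 0.031) and sterol and fatty acid synthesis lie below the line, and Lce3 and the neutrophil chemokines above it. Taken gene by gene, the neutrophil chemokines had a median difference between responses of 0.34, with 7 genes positive and 2 negative.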

How the data were processed

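RNA sequencing was done on 8 mouse epidermis libraries (4 groups of 1 female and 1 male). Reads were processed with Trimmomatic 0.35, STAR 2.5.2a and DESeq2 1.24.0 on mm10, per the submitters' processing notes; no label names the counting tool, the annotation or the gene filter. Each deposited value is a signal of a gene, its read count divided by a size factor, in 2 tables scaled separately, 1 for treated and 1 for untreated libraries, so table and treatment coincide. All values were whole multiples of 1 read within 0.001 read, and these recovered reads (28600596 to 43080052 per library) were rescaled together with TMM factors from edgeR 4.0.16.

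Genes with a mean of at least 0.5 CPM over 8 libraries (13555 of 16902) were tested on log2(CPM + 0.5) with limma 3.58.1 (R 4.3.3), fitting 4 group means with a mean-variance trend, and the Benjamini-Hochberg adjustment covered all tested genes. The p-values measure the spread between the 2 animals of each group and, since the SE is shared across groups, that of all 8 libraries. Gene positions came from GENCODE on GRCm38, and promoters from RefSeq on GRCm38.p6. The fit was tested on simulated data.

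The genes named are Ovol1 and Ovol2, the 12 largest rises and 12 largest falls past the threshold without overlap, up to 5 largest called changes and 2 members with the highest mean CPM in each of 51 gene lists, and the 6 smallest p per direction of the difference between responses; others are marked as chosen after their values were seen. Predicted genes were counted but not named, and some genes that the rule names are not reported here. The members and lists were chosen with earlier results of these data known. Of 960 symbols in the lists, 912 were found in the tables. Alternatives covered scaling, pseudocount, filter, edgeR and DESeq2 1.42.0 on the recovered reads, a replicate block, call rules, and each library left out.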

Additional observations from a re-analysis of the deposited data

Results flagged for a closer look

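For 3 lists the median difference between IMQ and untreated had opposite signs in the female and the male pair, each at least 0.25 from 0; the difference between the sexes, with 1 animal each, was not tested. The IL-1 family was at -0.29 (female pair) and 0.36 (male pair). Markers of skeletal and smooth muscle were at -0.43 and 0.99. Adipocyte markers were at -0.35 and 0.92, although 2 of them were called lower.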

How the results depend on the processing

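The count of 7206 genes called in the labelled knockout response stayed between 6026 (a filter of at least 5 CPM, 10137 genes tested) and 7698 (replicate block) over the alternatives of scaling, pseudocount, filter, tool and samples, apart from the libraries left out. It was 7060 with total reads only, 7108 in edgeR and 7347 in DESeq2. Leaving out 1 of the 8 libraries gave 4731 to 7284, lowest without the female untreated knockout library, where 4685 of the 4731 were shared with the full fit. Stricter rules gave 3396 (a fold of at least 2) and 4519 (adjusted p under 0.01), by construction. The test of the difference between the responses called 0 genes in each setting except DESeq2, with 93; the cause was not tested. At an unadjusted p under 0.05 it reached 1457 genes in edgeR, 1480 in DESeq2 and 1858 with the replicate block.

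The replicate number is the sex of the animal, and same-numbered samples came from different animals. The female minus male deviations correlated between groups at r = 0.151 to 0.559 across genes, and at 0.0689 to 0.495 without genes of the sex chromosomes. With the replicate block 7698 genes were called, and edgeR with the block, added after seeing the data, called 7631. With the block 14 sebaceous gland genes were called lower, and of the barrier lipid enzymes 7 rose and 10 fell. Of the values of single genes under all settings, 6067 stayed called or stayed not called, 204 lost the call and 67 gained one. In genes called in the main or the other fit, 0 reversed direction. A change of sign in a gene called in neither fit was counted among the 6067. Of list medians 866 moved by less than the spread between the sex pairs, and 35 in 14 lists had the other sign. The lists were barrier lipids, IL-1, IL-17, IL-20 and gp130, EGF, NRF2, Notch, epithelial-mesenchymal regulators, T cells, mast cells, fibroblasts (-0.61 to -0.23), muscle (-0.32), adipocytes (-1.28 to -0.55) and heat shock. In 6 cases a median larger than the spread turned by more than it: IL-20 and gp130 cytokines (-0.075) and EGF family (0.043) with at least 5 CPM, NRF2 and glutathione with total reads (-0.018) and without the male IMQ knockout library (-0.0030), and Notch without a filter (0.046) and with at least 5 CPM (0.16). The cause was not tested. Depth limits what can be said of genes under about 1 CPM.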
